A study of Mus musculus with 20 samples.

Results

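The PYHIN family was followed in mouse bone marrow-derived macrophages (BMDMs) after exposure to material from allergic airways. The members were the Ifi200 genes Ifi203, Ifi204, Ifi205, Ifi206, Ifi207, Ifi208, Ifi209, Ifi211 and Mnda, together with Aim2, and their rows were found by gene name. Of these 10 names, 9 had a row among the 78409 genes of the deposited table. No row was named Mnda, which RefSeq lists as a synonym of Ifi211, and Mnda is given no value of its own here. A further 5 rows belonged to the same family (Ifi202b, Ifi203-ps, Ifi213, Ifi214 and Mndal), which brought the family to 14 rows.

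BMDMs were grown from wild-type C57BL/6J female mice in L929-conditioned medium and treated in serum-free medium. The material came from bronchoalveolar lavage fluid of ovalbumin-challenged donor mice that carried the small noncoding RNA gene RNY1 (RNY1+/+) or from which it had been deleted by CRISPR (RNY1-/-). Size-exclusion chromatography split the fluid into an extracellular vesicle fraction (EVFx) and a protein-enriched fraction (ProteinFx). The 5 groups were PBS, RNY1+/+ EVFx, RNY1-/- EVFx, RNY1+/+ ProteinFx and RNY1-/- ProteinFx, with 4 libraries each and 20 libraries in all. EVFx was given at 35000000 particles per µL and ProteinFx at 0.75 µg of protein per µL, both after 5 days of storage. The genotype was that of the fluid donor. Per the paper, RNY1-/- mice came from GemPharmatech, and the rest were C57BL/6J of JAX origin. No littermate donors are described, so donor genotype and donor source cannot be told apart here. The macrophages were wild-type in every group, so the deletion could not be checked in these libraries. The sources used here give neither the length of the treatment nor whether libraries of a group came from separate mice or pools, so p-values measure the spread between these libraries, which may be technical.

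A typical PYHIN protein pairs an amino-terminal pyrin domain, which binds other pyrin domains, with carboxy-terminal HIN domains that bind DNA. Not every member has both. AIM2 is the member that senses double-stranded DNA in the cytosol and nucleates an inflammasome by recruiting the adaptor ASC (Pycard) and caspase-1. The Ifi200 genes are known as interferon-inducible genes of myeloid cells, and several, Ifi204 among them, have been tied to DNA sensing through STING or to transcription.

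The 14 rows lay together on chromosome 1, between 173350879 and 174031810 of GRCm38 (680.932 kb), with 0 other protein-coding genes inside that span. They were not all separate: Mndal (173849126 to 173942491, minus strand) contained Ifi211 and overlapped most of Ifi203 on the same strand. Aim2 stood at one end (173350879 to 173466040, plus strand) and Ifi205 at the other (174011998 to 174031810, minus strand). Between them came Ifi206 (173468485 to 173491041, minus), Ifi209 (173630917 to 173647928, plus), Ifi208 (173673675 to 173698395, plus), Ifi207 (173723427 to 173741747, minus), Ifi204 (173747293 to 173766943, minus), Ifi211 (173896345 to 173913046, minus) and Ifi203 (173920407 to 173942672, minus). Their Ensembl identifiers were ENSMUSG00000037860 for Aim2, ENSMUSG00000037849 for Ifi206, ENSMUSG00000043263 for Ifi209, ENSMUSG00000066677 for Ifi208, ENSMUSG00000073490 for Ifi207, ENSMUSG00000073489 for Ifi204, ENSMUSG00000026536 for Ifi211, ENSMUSG00000039997 for Ifi203 and ENSMUSG00000054203 for Ifi205. RefSeq promoter windows, which run from 250 bases before to 50 bases after a gene's start, were given for 8 of the 9 members, Ifi204 being the exception. The core of the interferon-stimulated response element, GAAA followed after any 2 bases by another GAAA, was searched on both strands and was found in 6 of these 8 members and in 9 of the 12 PYHIN genes with a window, against 3.44% of 32851 windows genome-wide. The 6 matching stretches are printed because they show how alike the members are around that motif, and those of Aim2 and Ifi209, which held no match, are printed for contrast. Each runs 5′ to 3′ on the gene's own strand, with the match in capitals.
Ifi206: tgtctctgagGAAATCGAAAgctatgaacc
Ifi208: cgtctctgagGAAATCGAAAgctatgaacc
Ifi207: cctagccaggGAAATCGAAAattaagaaca
Ifi203: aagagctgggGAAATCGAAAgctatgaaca
Ifi211: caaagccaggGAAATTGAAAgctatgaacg
Ifi205: ccaggccaggGAAATTGAAAgctatgaaca
Aim2: tgtctgagcaagaatcacaacctgcctgct
Ifi209: acttcctgtttcttagctcttctgccaaca

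On GRCm38.p6 these are chr1:173491339-173491368 (minus strand) for Ifi206, chr1:173673597-173673626 (plus) for Ifi208, chr1:173741831-173741860 (minus) for Ifi207 and chr1:173942508-173942537 (minus) for Ifi203. They are chr1:173913064-173913093 (minus) for Ifi211, chr1:174031870-174031899 (minus) for Ifi205, chr1:173420559-173420588 (plus) for Aim2 and chr1:173630814-173630843 (plus) for Ifi209. The match began at position -40 from the annotated start in Ifi206, -41 in Ifi207, -37 in Ifi211, -35 in Ifi203, -58 in Ifi208 and -134 in Ifi205. Ifi205 held another match on the opposite strand at position 23, and a further RefSeq start of Ifi203 had none. The gamma-activated sequence TTCNNNGAA was in 0 of the 8 windows (8.3% of all windows), and an NF-kB-type motif, GGG followed after any 5 bases by CC, was in those of Ifi203 and Ifi209 (50.8% of all windows). A match describes the letters of a window and is not a binding site.

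Libraries were 3′-end, so the levels of different genes, given as CPM (each count scaled to the total of its library), are not compared below, and shares of their sum are compared between groups only. Totals ran from 2510005 to 8277366 counts, with a median of 5456425. Reads that mapped to several genes had been counted as fractions, and 23.6% to 26.3% of the detected genes of a library held such a fraction. Aim2 counts were whole in 20 of 20 libraries, while those of Ifi211 were fractional in 20 and those of Ifi209, the least affected Ifi200 member, in 10. In the last 500 bases of the longest transcript, where 3′-end reads fall, 77.4% of the 50-base words of Ifi211 also occurred in Ifi205. The like shares were 63.4% for Ifi209 with Ifi214, 12.6% for Ifi208 with Ifi213 and 11.5% for Ifi206 with the predicted gene Gm18752. They were 2.22% for Ifi204, 1.77% for Aim2 and 0 for Ifi203, Ifi205 and Ifi207. The 0 of Ifi205 holds for its longest transcript only and does not make its 3′ end unique. The words of Ifi211 recurred in other Ifi205 transcripts, and Ifi205 counts were fractional in 16 of 20 libraries. The split of reads between Ifi211 and Ifi205, and between Ifi209 and Ifi214, is therefore uncertain, and their sums are given below.

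Among the RNY1-/- ProteinFx libraries, 1 and 2 resembled each other, as did 3 and 4. Their mean squared differences were 3.21 and 2.37 times counting error within these pairs and 11.9 to 14 times across them. PBS library 3 lay 14.9 to 30.7 times counting error from the other PBS libraries. All 10 listed macrophage markers averaged 3 CPM or more, with sums of 8762 to 13672 CPM. Of these 10, 4 were called higher and 1 lower for ProteinFx against EVFx with RNY1+/+ fluid, 3 and 1 with RNY1-/- fluid, and 0 between the genotypes in either fraction. Against PBS 2 were higher and 1 lower with RNY1+/+ EVFx, 1 and 1 with RNY1-/- EVFx, and 3 and 0 with each ProteinFx. The 8 eosinophil markers, of which Il5ra and Epx were at 0 in every library, summed to 7.65 to 13.6 CPM in PBS, 0.801 to 2.46 with EVFx and 12.7 to 21.4 with ProteinFx. The 1 eosinophil marker tested, Ccr3, was called lower with both EVFx treatments than in PBS (log2 fold changes of -2.97 and -2.30), higher with RNY1+/+ ProteinFx than in PBS (1.09), and higher with ProteinFx than with EVFx (4.06 with RNY1+/+ and 2.97 with RNY1-/- fluid). The 10 neutrophil markers summed to 288 to 336 CPM in PBS and 144 to 357 elsewhere, with 2 of 4 called lower with each EVFx and 1 of 3 with each ProteinFx. The 6 B cell markers summed to 9.84 to 16.2 CPM in PBS and 2.08 to 6.15 elsewhere, and the 1 tested was called lower with all 4 fractions. Of the 8 T cell markers only Cd28 averaged 3 CPM or more, and it moved with treatment, from 343 ± 44.9 CPM (SD, n = 4) in PBS to 29.6 ± 2.65 with RNY1+/+ EVFx, 44.8 ± 6.8 with RNY1-/- EVFx, 38.8 ± 11.2 with RNY1+/+ ProteinFx and 119 ± 29.6 with RNY1-/- ProteinFx. The 6 epithelial markers summed to 2.78 to 20.7 CPM. The 1 tested was called higher with RNY1-/- than RNY1+/+ EVFx (log2 difference 1.13) and lower in the interaction described below (-1.76). Of 3 fibroblast markers, 1 was called lower than PBS with every fraction but RNY1+/+ EVFx, and none between the genotypes. Whether these marker differences had any part in the results below was not tested. In bulk libraries, a change in the number of cells that express a gene and a change in its RNA per cell cannot be told apart.

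The first question was whether fluid from allergic airways altered the family relative to PBS. Every Ifi200 member other than Ifi207 was higher with each of the 4 fractions, from 2.66-fold for Ifi203 with RNY1+/+ EVFx to 43.3-fold for Ifi206 with RNY1+/+ ProteinFx. Ifi207 was higher only with the ProteinFx treatments under the rule used for a call, an adjusted p below 0.05 in edgeR's quasi-likelihood test with an absolute log2 fold change above 1. Aim2, the inflammasome sensor, was not called in any of the 4 comparisons. By that rule 7 of 9 members were higher with RNY1+/+ EVFx, where 8.24% of all genes tested were called higher, and 7 with RNY1-/- EVFx, against 9.02% of all genes. With RNY1+/+ ProteinFx 8 were higher, against 8.96%, and with RNY1-/- ProteinFx 8 were higher, against 6.31%. No member was called lower, while 8.2%, 13.5%, 12.4% and 7.99% of all genes were. Every treated library was above every PBS library for 7, 7, 8 and 8 of 9 members. The like shares of all genes were 15.1%, 15.8%, 15.7% and 13.8%. The median log2 fold change of the 9 members was 2.56, 3.03, 3.90 and 3.40 in that order, while the median of all genes tested was -0.03 in each. The 4 comparisons share their PBS libraries.

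**Figure D1:**
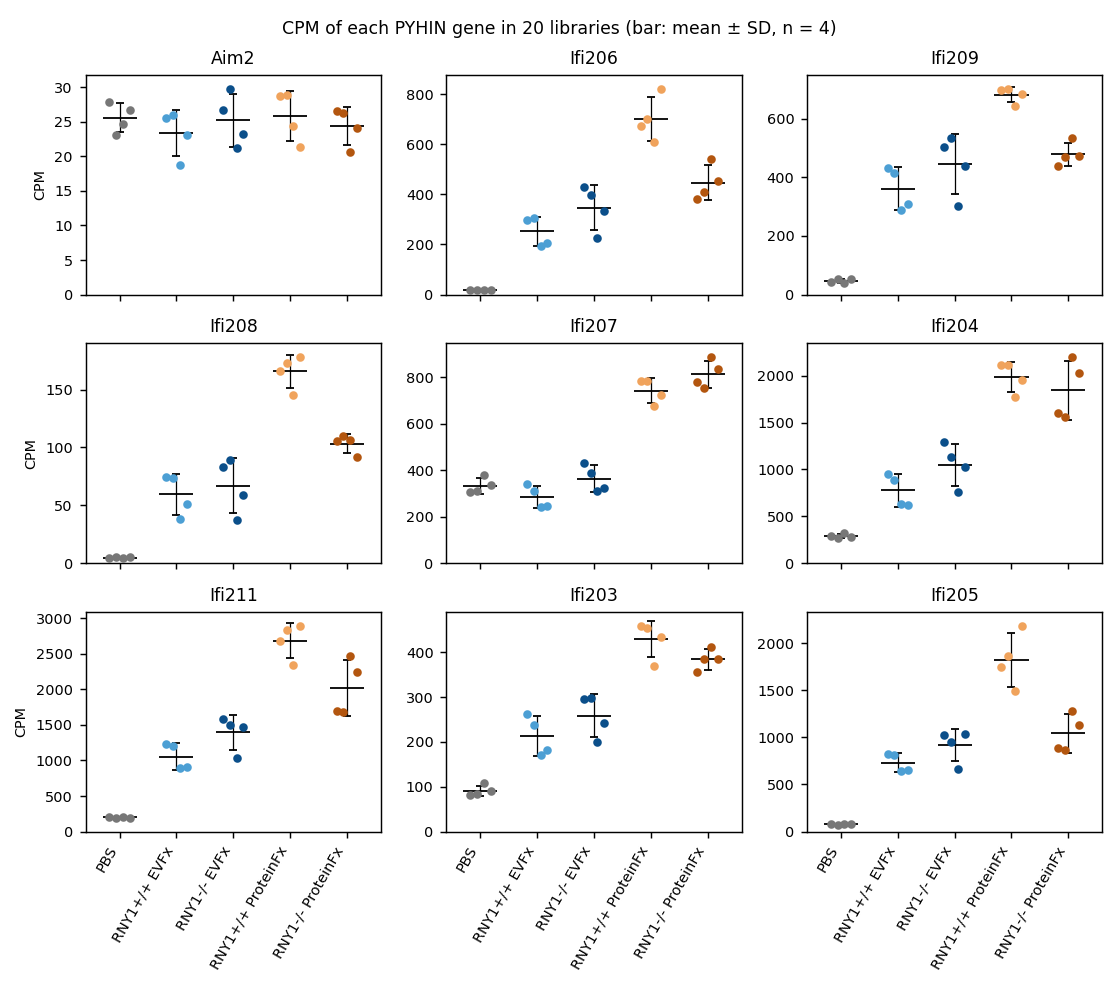
CPM of each member (one panel a gene, linear axis from 0) in the 20 libraries by treatment group; points are libraries and bars the mean ± SD of 4. Every Ifi200 member but Ifi207 was above all PBS libraries in every treated library, while Aim2 stayed between 18.8 and 29.8 CPM. Of all genes tested, 13.8% to 15.8% had every library of a treatment above every PBS library.

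Ifi206, among the members with the largest changes, read 18.2, 18.4, 16.2 and 20.0 CPM in the 4 PBS libraries, 299, 307, 195 and 206 with RNY1+/+ EVFx, and 431, 398, 226 and 332 with RNY1-/- EVFx. With ProteinFx it read 675, 702, 610.1 and 821 (RNY1+/+) and 383, 408, 543 and 454 (RNY1-/-). All 16 treated libraries were far above all PBS libraries, and the RNY1+/+ ProteinFx libraries were above every other library. Scaled by the trimmed mean of M-values (TMM), its log2 fold change against PBS was 3.96 ± 0.18 (SE) with RNY1+/+ EVFx (edgeR, adjusted p = 4.11e-08) and 5.44 ± 0.15 with RNY1+/+ ProteinFx (edgeR, adjusted p = 3.55e-10). In order of mean level the groups ran PBS, RNY1+/+ EVFx, RNY1-/- EVFx, RNY1-/- ProteinFx and RNY1+/+ ProteinFx, and of the neighbours in that order only RNY1-/- EVFx and RNY1-/- ProteinFx missed the adjusted p threshold.

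Ifi208 was low in PBS, at 4.61, 4.97, 3.96 and 4.98 CPM, or 17.33 to 32.17 counts. It read 74.6, 73.5, 38.3 and 51.0 CPM with RNY1+/+ EVFx, 83.4, 89.1, 37.0 and 58.4 with RNY1-/- EVFx, 166, 173, 146 and 178 with RNY1+/+ ProteinFx, and 106, 109.7, 106 and 91.7 with RNY1-/- ProteinFx. No treated library overlapped PBS, and no ProteinFx library overlapped an EVFx library. The log2 fold change against PBS ran from 3.86 ± 0.24 with RNY1+/+ EVFx to 5.33 ± 0.14 with RNY1+/+ ProteinFx.

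Ifi205, whose product p205 has been linked to expression of the ASC adaptor, read 81.5, 74.3, 77.3 and 76.8 CPM in PBS. It reached 822, 813, 638 and 649.7 with RNY1+/+ EVFx, 1025, 950.3, 668 and 1039 with RNY1-/- EVFx, 1743, 1863, 1493 and 2183 with RNY1+/+ ProteinFx, and 883, 865, 1284 and 1135 with RNY1-/- ProteinFx. The RNY1+/+ ProteinFx libraries were again above all others, and the RNY1-/- ProteinFx libraries overlapped those of RNY1-/- EVFx. Against PBS its log2 fold change was 3.41 ± 0.12 and 3.81 ± 0.16 with RNY1+/+ and RNY1-/- EVFx, and 4.73 ± 0.15 and 3.83 ± 0.18 with RNY1+/+ and RNY1-/- ProteinFx.

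Ifi211 rose from 211, 195, 208 and 194 CPM in PBS to 1229.8, 1199, 887 and 908 with RNY1+/+ EVFx, 1585, 1498, 1036 and 1472 with RNY1-/- EVFx, 2677, 2837, 2339 and 2894 with RNY1+/+ ProteinFx, and 1694, 1679, 2474 and 2239 with RNY1-/- ProteinFx. Summed with Ifi205, with which its 3′ end shares sequence, it gave 279.5 ± 10.9 CPM in PBS, 1787 ± 284 with RNY1+/+ EVFx, 2318 ± 415 with RNY1-/- EVFx, 4507 ± 524 with RNY1+/+ ProteinFx and 3063 ± 602 with RNY1-/- ProteinFx. The order of the groups was thus the same for the sum as for either gene. Ifi209 stood at 38.4 to 54.0 CPM in PBS, 287 to 433 with RNY1+/+ EVFx, 303 to 533 with RNY1-/- EVFx, 644 to 701 with RNY1+/+ ProteinFx and 437 to 533 with RNY1-/- ProteinFx. Its sum with Ifi214 moved from 51.6 ± 8.0 CPM in PBS to 743 ± 25.9 with RNY1+/+ ProteinFx, and the sum of Ifi208 with Ifi213 from 19.9 ± 2.35 to 544 ± 57.1.

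Ifi204 and Ifi203 had smaller fold changes against PBS than the 5 members above. Ifi204, the mouse DNA sensor p204, was at 268 to 324 CPM in PBS, 624 to 955 with RNY1+/+ EVFx, 759 to 1295 with RNY1-/- EVFx, 1771 to 2112 with RNY1+/+ ProteinFx and 1556 to 2197 with RNY1-/- ProteinFx. Its log2 fold changes against PBS were 1.60 ± 0.16, 2.11 ± 0.16, 2.95 ± 0.12 and 2.75 ± 0.16 in that order. Ifi203 was at 81.6 to 107 CPM in PBS and at 371 to 459 with RNY1+/+ ProteinFx, with log2 fold changes of 1.41 ± 0.16, 1.75 ± 0.15, 2.41 ± 0.13 and 2.15 ± 0.13. For both genes all treated libraries were above all PBS libraries.

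Ifi207 and Aim2 were the exceptions. Ifi207, which has been linked to STING and to cytokine transcription, read 306, 309, 380.0 and 334 CPM in PBS, 341, 309.5, 243 and 244 with RNY1+/+ EVFx, and 432, 388, 309 and 324 with RNY1-/- EVFx. With ProteinFx it read 786, 786, 677 and 726 (RNY1+/+) and 778, 754, 886 and 835 (RNY1-/-). The EVFx libraries overlapped PBS, while all 8 ProteinFx libraries lay above the other 12. Against PBS the log2 fold change was -0.05 (95% CI -0.34 to 0.25) with RNY1+/+ EVFx (edgeR, adjusted p = 0.801). It was 0.37 (0.09 to 0.65) with RNY1-/- EVFx (edgeR, adjusted p = 0.0266), and -0.01 with GC content and length trends removed. With ProteinFx it was 1.33 ± 0.11 (RNY1+/+; edgeR, adjusted p = 2.07e-06) and 1.36 ± 0.12 (RNY1-/-; edgeR, adjusted p = 1.91e-05), and the first fell to 0.91 with GC content and length trends removed, which ended its call.

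Aim2 read 27.9, 23.2, 24.7 and 26.7 CPM in PBS, 25.6, 26.0, 18.8 and 23.1 with RNY1+/+ EVFx, and 26.8, 29.8, 21.2 and 23.2 with RNY1-/- EVFx. With ProteinFx it read 28.7, 28.9, 24.4 and 21.3 (RNY1+/+) and 26.6, 26.3, 20.7 and 24.1 (RNY1-/-). The 5 groups overlapped throughout. The log2 fold change against PBS was 0.05 (95% CI -0.24 to 0.34) with RNY1+/+ EVFx, 0.23 (-0.07 to 0.52) with RNY1-/- EVFx, 0.18 (-0.12 to 0.47) with RNY1+/+ ProteinFx and 0.01 (-0.28 to 0.29) with RNY1-/- ProteinFx. The adjusted p-values were 0.780, 0.163, 0.281 and 0.973 (edgeR). The sign turned in all 4 with GC content and length trends removed (-0.16, -0.17, -0.27 and -0.35). With total counts in place of TMM it was negative in 3 of the 4 (-0.13, -0.01, 0.01 and -0.06). The values rest on 52 to 208 Aim2 counts a library.

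**Figure D2:**
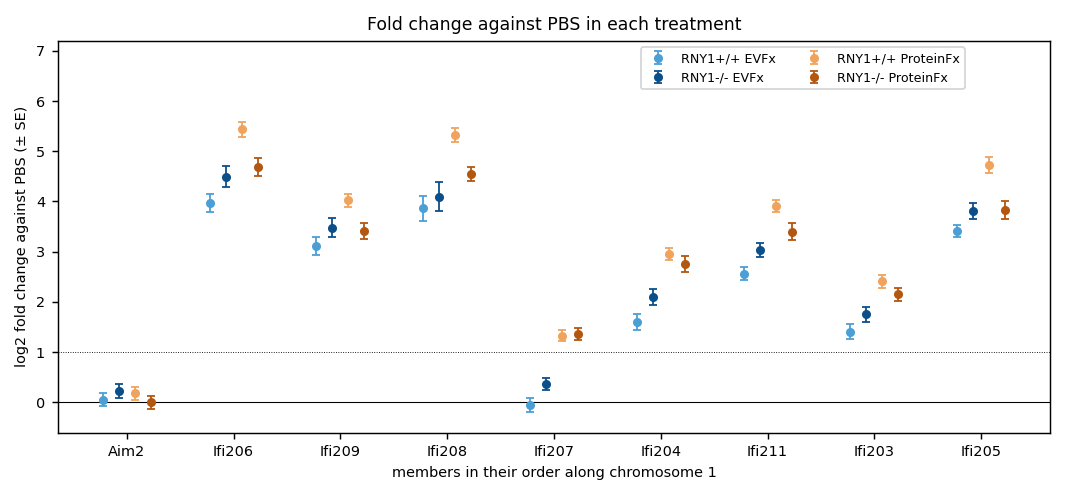
Log2 fold change against PBS (y axis, edgeR on TMM-scaled counts) of each member (x axis, in order along chromosome 1) for the 4 treatments. Points are estimates from 4 against 4 libraries and bars ± SE. Ifi206 and Ifi208 lie highest, Ifi207 lies apart by fraction and Aim2 lies near 0.

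Because the members changed by different factors, their shares of the summed CPM of the 9 members shifted between groups. The sum was 1087 ± 65.4 CPM in PBS, 3755 ± 700 with RNY1+/+ EVFx, 4876 ± 926 with RNY1-/- EVFx, 9242 ± 810 with RNY1+/+ ProteinFx and 7160 ± 1087 with RNY1-/- ProteinFx, or from 0.109% to 0.924% of a library. Ifi207 made up 30.5% ± 1.40 of the sum in PBS, and 7.59% ± 0.246, 7.53% ± 0.884, 8.06% ± 0.502 and 11.5% ± 0.919 in the treated groups in the same order. Ifi205 made up 7.14% ± 0.470 in PBS and 19.6% ± 0.981, 18.9% ± 1.42, 19.6% ± 1.67 and 14.5% ± 0.626 after treatment. The share of Ifi205 was lower with RNY1-/- ProteinFx than with the other 3 fractions by more than the SDs, and that of Ifi207 higher, differences that were not tested.

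The second question was whether the family differed between ProteinFx and EVFx from donors of the same genotype. The 2 fractions were dosed in unlike units, particles and protein, so their doses cannot be matched. With RNY1+/+ fluid, 7 of 9 members were called higher with ProteinFx than with EVFx (6.71% of all genes, with 6.82% called lower), and all ProteinFx libraries were above all EVFx libraries for 8 of 9, Aim2 being the exception, as for 27.1% of all genes. The log2 differences were 1.48 ± 0.15 for Ifi206, 1.47 ± 0.16 for Ifi208, 1.39 ± 0.11 for Ifi207, 1.36 ± 0.13 for Ifi204, 1.35 ± 0.12 for Ifi211, 1.32 ± 0.13 for Ifi205 and 1.01 ± 0.13 for Ifi203. Ifi209 had 0.92 ± 0.12 and met the adjusted p alone (edgeR, adjusted p = 1.24e-05), which makes 8 of 9 members against 31.1% of all genes, while Aim2 had 0.13 (95% CI -0.14 to 0.39). With GC content and length trends removed the calls of Ifi203 and Ifi205 ended, at 0.57 and 0.80. That of Ifi203, at the fold threshold, also ended without RNY1+/+ EVFx library 3 (0.92) or 4 (0.93) or without RNY1+/+ ProteinFx library 1 (0.98), 2 (0.99) or 4 (0.997), and Ifi209 was called without RNY1+/+ EVFx library 1 (1.01).

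With RNY1-/- fluid the log2 differences between ProteinFx and EVFx were lower than with RNY1+/+ fluid for all 9 members, a contrast that is tested as an interaction below. Ifi207 alone was called higher, with a log2 difference of 1.01 ± 0.13 (edgeR, adjusted p = 6.79e-05), against 4.98% of all genes (4.05% were called lower). That value lay at the fold threshold, and DESeq2 called 0 members where 4 of 9 were higher at an unadjusted p below 0.05 in edgeR, as were 20.5% of all genes. By adjusted p alone, Ifi204 (0.66 ± 0.18) and Ifi203 (0.41 ± 0.13) were also higher, which makes 3 of 9 members against 15.2% of all genes. Ifi205 had 0.02 (95% CI -0.37 to 0.41), Ifi209 -0.05 (-0.40 to 0.29) and Ifi206 0.21 (-0.20 to 0.61), and their RNY1-/- ProteinFx libraries overlapped those of RNY1-/- EVFx. Without RNY1-/- ProteinFx libraries 3 and 4, Ifi207 had 0.87 ± 0.12 and lost its call, as it did without RNY1-/- EVFx library 3 (0.93) or 4 (0.97) or RNY1-/- ProteinFx library 3 (0.95) or 4 (0.98) alone. Over the genes averaging 3 CPM or more, same-numbered libraries deviated together in this comparison. For library 3 the members did not follow that pattern: it was the lowest of RNY1-/- EVFx for 9 of 9 and the highest of RNY1-/- ProteinFx for 7 of 9. The like shares of all genes were not computed. With the replicate number as a block Ifi208 (0.45 ± 0.21 without it) passed the adjusted p (edgeR, adjusted p = 0.0369).

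The third question was whether loss of RNY1 in the donor altered the response. Between the EVFx groups, all 9 members had a positive log2 difference for RNY1-/- over RNY1+/+, and for all 9 the libraries overlapped in CPM, while 17.8% of all genes had every RNY1-/- library above every RNY1+/+ library. None passed the rule for a call in edgeR or DESeq2 (0.378% of all genes were called higher and 1.98% lower), and 7 of 9 were higher at an unadjusted p below 0.05 in edgeR, as were 28.6% of all genes. By adjusted p alone 5 members were higher, against 25.5% of all genes. They were Ifi206 (0.53 ± 0.19), Ifi204 (0.51 ± 0.16), Ifi211 (0.48 ± 0.14), Ifi207 (0.42 ± 0.12) and Ifi205 (0.41 ± 0.14), with adjusted p between 0.0129 and 0.0288 in edgeR. Ifi203 had 0.35 ± 0.15 (edgeR, adjusted p = 0.0587), Ifi209 0.37 ± 0.17 (edgeR, adjusted p = 0.0760), Ifi208 0.25 ± 0.24 (edgeR, adjusted p = 0.391) and Aim2 0.18 ± 0.12 (edgeR, adjusted p = 0.226). With GC content and length trends removed 0 passed, and Ifi205 was then at -0.0013. Without RNY1+/+ EVFx library 4 also 0 passed, and without RNY1+/+ EVFx library 3, RNY1-/- EVFx library 1 or RNY1-/- EVFx library 4 only 2 did. In both EVFx groups library 3 was the lowest, for 8 of 9 members with RNY1+/+ fluid and for 9 of 9 with RNY1-/- fluid. In ProteinFx library 3 was the lowest for 8 of 9 with RNY1+/+ fluid and the highest for 7 of 9 with RNY1-/- fluid. Library 3 was also the shallowest of each EVFx group, at 4994483 (RNY1+/+) and 4059987 (RNY1-/-) counts. The share of all genes in such an order was not computed, so a trait of the family cannot be told from a shift of the library.

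Between the ProteinFx groups 8 of 9 members had a negative log2 difference. It was -0.89 ± 0.17 for Ifi205 (edgeR, adjusted p = 0.00838), -0.77 ± 0.11 for Ifi208 (edgeR, adjusted p = 0.00101), -0.74 ± 0.15 for Ifi206 (edgeR, adjusted p = 0.0104) and -0.60 ± 0.11 for Ifi209 (edgeR, adjusted p = 0.00594). Their levels with RNY1-/- ProteinFx were 0.541, 0.587, 0.600 and 0.662 times those with RNY1+/+ ProteinFx. These 4 members passed by adjusted p alone, against 3.37% of all genes that were lower, and for each of the 4 every RNY1-/- library was below every RNY1+/+ library, as for 4.96% of all genes. None passed the rule for a call in edgeR or DESeq2 (1.17% of all genes were called lower and 0.659% higher), and 6 of 9 were lower at an unadjusted p below 0.05 in edgeR, as were 9.49% of all genes. Without RNY1-/- ProteinFx library 3, Ifi205 was called, at -1.02. The other 5 members overlapped between the groups. Their log2 differences were -0.49 (95% CI -0.83 to -0.15) for Ifi211, -0.24 (-0.48 to -0.01) for Ifi203, -0.18 (-0.49 to 0.12) for Ifi204, -0.15 (-0.44 to 0.14) for Aim2 and 0.05 (-0.19 to 0.28) for Ifi207.

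The pairs of RNY1-/- ProteinFx libraries differed in these genes too. They also differed in depth, with totals of 5293171 and 7149366 counts in libraries 1 and 2 and 2510005 and 3855450 in 3 and 4. Whether depth had a part in the split was not tested. For 7 of 9 members (Ifi203, Ifi204, Ifi205, Ifi206, Ifi207, Ifi209 and Ifi211) libraries 3 and 4 were both above 1 and 2, as for 27.6% of all genes, and for Aim2 both were below, as for 43% of all genes. Ifi208 showed neither. Against RNY1+/+ ProteinFx, the log2 difference of Ifi205 was -1.20 ± 0.14 with libraries 1 and 2 alone and -0.63 ± 0.14 with libraries 3 and 4 alone, and that of Ifi211 was -0.81 ± 0.11 and -0.23 ± 0.12. Ifi208 had -0.76 ± 0.11 and -0.79 ± 0.12, and was equally low in either pair. With libraries 1 and 2 alone 7 members were lower by adjusted p and Ifi205 was called, while Ifi204 turned from -0.46 ± 0.11 with that pair to 0.05 ± 0.11 with the other, and Ifi207 from -0.09 ± 0.10 to 0.17 ± 0.10.

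**Figure D3:**
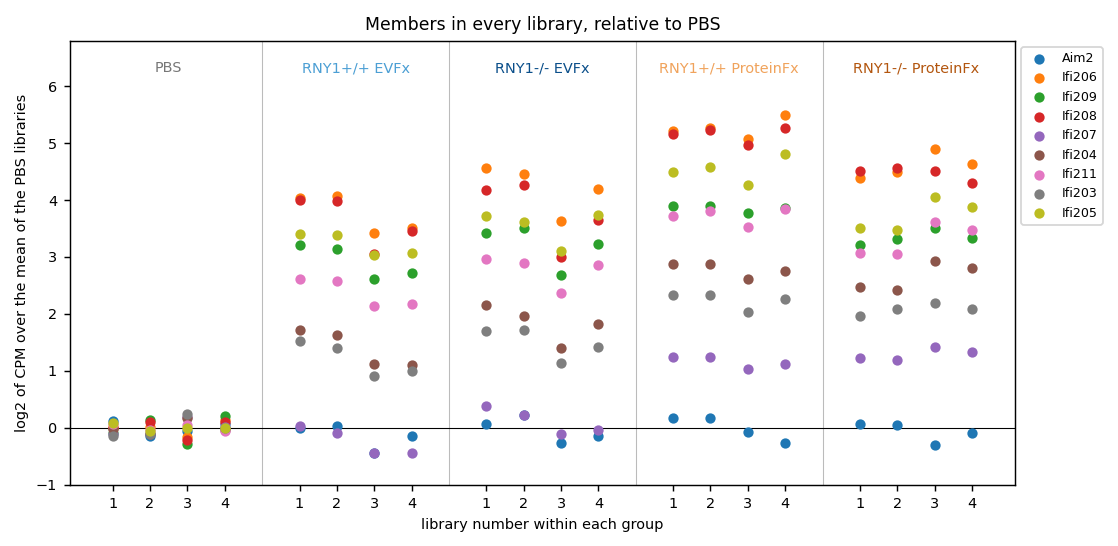
Each member in each of the 20 libraries, as log2 of its CPM over the mean CPM of the PBS libraries (y axis), with libraries along the x axis by group and 1 colour a member. Within RNY1-/- ProteinFx the points of 7 members are higher in libraries 3 and 4 than in 1 and 2, while Aim2 stays near 0 in all groups.

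The effect of the donor's genotype was then compared between the fractions as an interaction over the 16 treated libraries, in which the ProteinFx effect minus the EVFx effect was negative for all 9 members. By the rule for a call 3 members were lower (2.46% of all genes, with 5.33% called higher), namely Ifi205 (-1.29 ± 0.24; edgeR, adjusted p = 0.00275), Ifi206 (-1.27 ± 0.26; edgeR, adjusted p = 0.00395) and Ifi208 (-1.02 ± 0.29; edgeR, adjusted p = 0.0152). By adjusted p alone 7 were, against 16.2% of all genes, the others being Ifi211 (-0.97 ± 0.23), Ifi209 (-0.97 ± 0.21), Ifi204 (-0.70 ± 0.24) and Ifi203 (-0.60 ± 0.20). Ifi207 (-0.38; 95% CI -0.74 to -0.01) and Aim2 (-0.33; -0.71 to 0.05) did not pass after adjustment. With GC content and length trends removed only Ifi206 (-1.10) was called, with Ifi205 at -0.87 and Ifi208 at -0.85. By adjusted p alone 5 members then passed, without Ifi203 (-0.18; edgeR, adjusted p = 0.503) and Ifi204 (-0.40; edgeR, adjusted p = 0.159). With total counts in place of TMM 5 passed as well, again without Ifi203 (-0.44; edgeR, adjusted p = 0.0814) and Ifi204 (-0.55; edgeR, adjusted p = 0.0710). With RNY1-/- ProteinFx libraries 3 and 4 alone, only Ifi205 and Ifi206 passed by adjusted p. Without RNY1+/+ EVFx library 1 or 2, RNY1-/- EVFx library 3 or RNY1-/- ProteinFx library 3, 5 members were called, Ifi209 and Ifi211 among them. Ifi208 lost its call, at -0.87 to -0.99, without RNY1+/+ EVFx library 3 or 4, RNY1-/- EVFx library 1 or 2, RNY1+/+ ProteinFx library 2 or 4 or RNY1-/- ProteinFx library 4, and Ifi211 gained one, at -1.03, without RNY1+/+ ProteinFx library 3 or RNY1-/- ProteinFx library 4.

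**Figure D4:**
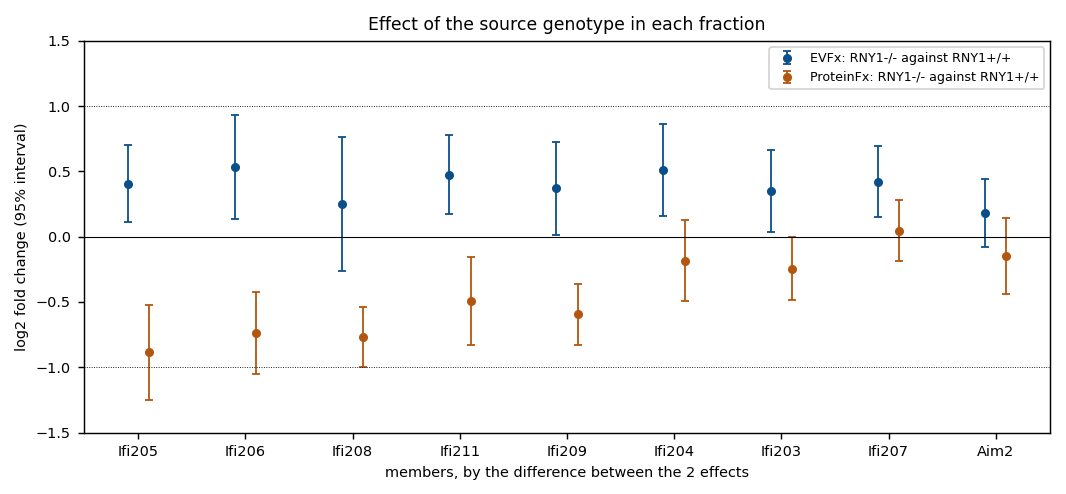
Log2 difference of RNY1-/- over RNY1+/+ source material (y axis) for each member (x axis) in EVFx and in ProteinFx. Points are edgeR estimates from 4 against 4 libraries and bars 95% confidence intervals. EVFx points lie above 0 for all 9 members, and ProteinFx points below 0 for all but Ifi207.

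The other PYHIN rows were read beside the members. Ifi213, Ifi214 and Mndal were called higher than PBS with all 4 fractions, and Ifi203-ps, a pseudogene, with the 3 in which it passed the filter on low values. Their log2 fold changes with RNY1+/+ ProteinFx were 4.79 ± 0.15 for Ifi213, 3.88 ± 0.17 for Ifi214, 2.82 ± 0.13 for Mndal and 2.72 ± 0.19 for Ifi203-ps. Ifi202b had at most 5 counts in a library and was not tested. In the interaction 1 of these 4 rows was called lower, Ifi203-ps (-1.13 ± 0.26). Of the last 500 bases of Mndal and Ifi203-ps, 22% and 20.6% of the 50-base words recurred in other genes, for Mndal in Ifi205. Their counts are therefore uncertain in part.

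AIM2 acts with the inflammasome partners, a list of 15 genes chosen by function. Of those tested, 4 of 12 were called higher and 0 lower with RNY1+/+ EVFx, 5 higher and 2 lower of 13 with RNY1-/- EVFx, 4 higher and 1 lower of 13 with RNY1+/+ ProteinFx, and 5 higher and 1 lower of 14 with RNY1-/- ProteinFx. Casp1, the protease that AIM2 engages, was at 184 ± 29 CPM in PBS and had log2 fold changes of 1.19, 1.53, 1.41 and 1.08, all called. Casp4 (caspase-11, the noncanonical sensor protease) had 2.47, 2.71, 2.77 and 2.45, all called as well. Pycard, which encodes the adaptor ASC, was at 164 ± 34.6 CPM in PBS and had -0.73 (edgeR, adjusted p = 0.00273) and -1.11 (edgeR, adjusted p = 0.000122) with RNY1+/+ and RNY1-/- EVFx, of which the second was called. With ProteinFx its values were -0.30 and -0.12 (edgeR, adjusted p = 0.120 and 0.615). Ninj1, which ruptures the membrane of dying cells, was called lower with RNY1+/+ (-1.06) and RNY1-/- (-1.19) ProteinFx.

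In the list of cytosolic DNA sensing genes, 5 of 14 were called higher and 1 lower with RNY1+/+ EVFx, 5 and 3 with RNY1-/- EVFx, 6 and 2 with RNY1+/+ ProteinFx, and 4 and 1 with RNY1-/- ProteinFx. Zbp1, a sensor of Z-form nucleic acid, had log2 fold changes of 3.17, 3.20, 3.30 and 3.18, all called. Trim30a, an interferon-inducible ubiquitin ligase, had 1.87, 2.43, 2.87 and 2.48, all called. Samhd1, which depletes deoxynucleotides, had 0.99, 1.01, 1.54 and 1.36, and Tbk1, the kinase downstream of STING, 0.80, 0.99, 1.11 and 0.85.

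Genes of interferon signalling were called higher in 7 of 16, 6 of 16, 7 of 17 and 6 of 16 cases in the same order, and lower in 0, 1, 1 and 0. Irf7, a transcription factor of the interferon response, had 2.36, 2.01, 2.49 and 2.18, all called. Jak1 and Ifngr1 were not called in any of the 4. The 20 interferon-stimulated effectors gave 20, 17, 20 and 19 genes called higher and 0 lower. Rsad2 (viperin) had 3.87, 4.06, 4.68 and 3.28, and in the ProteinFx groups was called lower with RNY1-/- fluid, at -1.39 (edgeR, adjusted p = 8.46e-05). Between the ProteinFx groups 5 effectors were called lower, and in the interaction 7 of 20 were, with Rsad2 at -1.59, Ifit1 at -1.71 and Ifit2 at -1.11, while Isg15 had -0.20 (edgeR, adjusted p = 0.501). In the interaction, 0 of 17 genes of interferon signalling were called.

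The genes whose course over the 20 libraries was most like the mean course of the members were Gvin1 and Gvin2, which encode very large interferon-inducible GTPases, with a root-mean-square difference of 0.140 on the log2 scale for both. They were followed by Trim30d (0.184), the interferon-inducible GTPase gene Ifi47 (0.194) and Ifih1, which encodes the RNA sensor MDA5 (0.204). The median over the 7541 genes compared was 1.19. Nearest to Aim2 were a gene listed by identifier alone, ENSMUSG00000134356 (0.137), Commd1b (0.138) and B3gnt2 (0.138), against a median of 0.381, and with total-count scaling Syap1 took the place of B3gnt2. For Aim2 the measure favours any gene that varied little.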

How the data were processed

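Per the labels and the study's methods, polyadenylated 3′-end libraries with unique molecular identifiers were trimmed (fastp 0.24.0), aligned to GRCm39 (STAR 2.7.11), deduplicated and counted by strand over exons and 3′ UTRs with featureCounts (Subread 2.1.1), with multi-mapped reads as fractions. The authors deposited these estimated counts and CPM per library, and all of these columns were read. CPM equalled count over library total. Coordinates and sequences here are from GRCm38, not the authors' build. Counts were rounded (by at most 0.5 counts, or 2.22% of a member's count) and tested with edgeR 4.0.16 (R 4.3.3; TMM, quasi-likelihood) on genes that passed filterByExpr and averaged 3 CPM or more in the libraries compared, 10321 to 10855 genes, with Benjamini-Hochberg adjustment over all of them. A call needed adjusted p below 0.05 and an absolute log2 fold change above 1. Tests were checked on simulated data. Groups and replicate numbers came from the sample titles. Over the genes averaging 3 CPM or more, same-numbered libraries deviated together in all 4 pairs (correlation above 0.1) only for RNY1-/- EVFx against PBS (0.129 to 0.381) and RNY1-/- ProteinFx against RNY1-/- EVFx (0.218 to 0.399). DESeq2 1.42.0, other scalings and filters, left-out libraries, a replicate block and removal of GC and length trends were alternatives. The members and gene lists were chosen with earlier results of these data known. All members are named, and for each other list up to 4 genes with the highest mean CPM (1 of them is not reported here), besides the 5 genes nearest to the members and the 3 nearest to Aim2.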

Additional observations from a re-analysis of the deposited data

Results flagged for a closer look

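For 7 members the effect of the donor's RNY1 genotype differed between the fractions by a test of the difference itself, the interaction over the 16 treated libraries (edgeR, adjusted p between 0.00275 and 0.0333). The differences, ProteinFx effect minus EVFx effect on the log2 scale, were -1.29 for Ifi205, -1.27 for Ifi206, -1.02 for Ifi208, -0.97 for Ifi211, -0.97 for Ifi209, -0.70 for Ifi204 and -0.60 for Ifi203. With RNY1-/- ProteinFx libraries 1 and 2 left out, 2 of the 7 passed the adjusted p, with GC content and length trends removed or with total counts 5 did (without Ifi203 and Ifi204), and with libraries 3 and 4 left out Ifi205 had -1.59 and Ifi206 -1.49. A Dixon test for a single library far from the other 3 of its group marked 0 of 45 groups of member values. With 4 libraries in a group, that test has little power and cannot mark a split of 2 against 2. It therefore does not show that the libraries of a group were alike. The split of RNY1-/- ProteinFx libraries 3 and 4 from 1 and 2 was outside its reach.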

How the results depend on the processing

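Of the member values under the alternatives, 1774 of 1845 kept their side of the thresholds, 39 lost a call, 32 gained one and 0 called values reversed. Values that were never called could change sign and still be counted among the 1774, as those of Aim2 against PBS did with GC content and length trends removed. The counts of members called against PBS were the same with any single library left out: 7, 7, 8 and 8. By adjusted p alone in place of the rule with the fold change, the members called were 5 for RNY1-/- against RNY1+/+ EVFx, 4 for the ProteinFx groups, 3 for RNY1-/- ProteinFx against RNY1-/- EVFx and 7 in the interaction. The 5 members higher with RNY1-/- than RNY1+/+ EVFx by adjusted p became 3 with total-count scaling, 8 with a replicate block and 0 with GC content and length trends removed (4 with the replicate block as well). The single member (Ifi207) called for RNY1-/- ProteinFx against RNY1-/- EVFx became 0 with RLE scaling, DESeq2, filterByExpr only, no filter, or counts thinned to the smallest library, and 0 without RNY1-/- ProteinFx libraries 3 and 4. The 3 called in the interaction became 1 with GC content and length trends removed, with or without a replicate block. Ifi208 also lost its interaction call with total counts (-0.86), with no filter (-0.94) and with counts thinned to the smallest library (-0.9998). Without RNY1-/- ProteinFx libraries 3 and 4, 1 member was called between the ProteinFx groups (0 with all libraries) and 7 passed by adjusted p (4), and without libraries 1 and 2, 2 passed by adjusted p in the interaction (7). With 1 library left out at a time, the counts ran from 0 to 1 between the ProteinFx groups, 6 to 8 for ProteinFx against EVFx with RNY1+/+ fluid, 0 to 1 with RNY1-/- fluid, 2 to 5 in the interaction, and by adjusted p from 0 to 7 between the EVFx groups, 4 to 5 between the ProteinFx groups and 5 to 8 in the interaction. Of these, Ifi205 was the member called between the ProteinFx groups without RNY1-/- ProteinFx library 3, and the Ifi207 call was lost without RNY1-/- EVFx library 3 or 4 or RNY1-/- ProteinFx library 3 or 4. Where all 4 same-numbered pairs correlated above 0.1, the block changed no call by the rule. Elsewhere fewer pairs did, with 3 for RNY1-/- ProteinFx against PBS, and the block moved no count but the one above by over 1.5 times. The causes of these shifts were not tested. Total-count scaling moved the median log2 value of all genes by more than 0.1 in several comparisons, to -0.21, -0.27 and -0.20 for the first 3 fractions against PBS, 0.19 for RNY1-/- ProteinFx against RNY1-/- EVFx and 0.17 in the interaction. GC content and length were known for 96.7% to 97.1% of genes tested.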
